A study of Rattus norvegicus with 7 samples.

Results

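Transcripts of 9 lysosomal genes were compared in rat alveolar type 2 cells after chronic ethanol feeding. The genes were the cathepsins Ctsh, Ctsb, Ctsd, Ctsl and Ctsc, the lysosomal membrane protein genes Lamp1, Lamp2 and Cd63, and the saposin precursor gene Psap. They were taken by name, as every probe set whose platform annotation gives 1 of these symbols alone, a rule that uses no measured value. The 9 genes themselves were chosen with earlier results of these data known. All 9 genes were on the array, with 19 probe sets among the 8740 tested, out of 4736 genes with a symbol of their own.

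The cells came from male Sprague Dawley rats of an age that the sources used here leave out. In the ethanol group, 3 rats received a liquid Lieber-DeCarlie diet with ethanol as 36% of calories for 6 weeks, and in the control group, 4 rats received an isocaloric liquid diet without ethanol for as long. Both groups thus share the liquid diet, the cell isolation by an immunoabsorption technique and the Trizol extraction, and each animal gave 1 Affymetrix expression array hybridised with biotin-labelled RNA. Every ethanol array has a higher number in its title than every control array, so diet and anything that follows this numbering cannot be told apart.

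Lysosomes are acidic organelles in which cathepsins and other hydrolases break down proteins, lipids and sugars, behind a membrane lined by heavily glycosylated LAMP proteins. In the alveolar type 2 cell the lamellar body, which stores and secretes surfactant, is a lysosome-related organelle: it is acidic and carries lysosomal enzymes and membrane proteins. Cathepsin H takes part there in trimming the surfactant protein B precursor, and saposins are close relatives of surfactant protein B. Alveolar macrophages, which can accompany these cells in an isolate, are also rich in lysosomes. A whole isolate was measured on each array, so fewer cells of a type and less RNA per cell cannot be told apart.

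The promoters of 7 of the 9 genes were matched by symbol in the RefSeq table of the GRCr8 assembly (250 bases before to 50 after the gene start), and Ctsb and Psap were not. Many lysosomal genes carry a site of the CLEAR type, read by the transcription factor TFEB, around the letters CACGTG, which are the same on both strands. These 6 letters were in the windows of Ctsd, Lamp1 and Cd63, and in 6.42% of all 33469 promoter windows. The longer TCACGTGA, which contains them, was in those of Ctsd and Lamp1, and in 0.777% of all windows. The 3 windows are shown because they alone, of the 7 matched, hold these letters. Each runs 5′ to 3′ in the direction of the gene, with every CACGTG in capitals. That of Ctsd is chr1:206968772-206969071 (minus strand), that of Lamp1 chr16:83075014-83075313 (minus strand) and that of Cd63 chr7:1921894-1922193 (plus strand).
Ctsd: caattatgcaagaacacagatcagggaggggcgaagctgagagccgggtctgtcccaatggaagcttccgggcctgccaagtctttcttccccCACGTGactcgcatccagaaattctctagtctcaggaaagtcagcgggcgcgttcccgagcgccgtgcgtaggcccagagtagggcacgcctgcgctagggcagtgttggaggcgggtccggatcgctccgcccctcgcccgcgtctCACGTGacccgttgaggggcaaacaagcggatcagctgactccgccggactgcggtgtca
Lamp1: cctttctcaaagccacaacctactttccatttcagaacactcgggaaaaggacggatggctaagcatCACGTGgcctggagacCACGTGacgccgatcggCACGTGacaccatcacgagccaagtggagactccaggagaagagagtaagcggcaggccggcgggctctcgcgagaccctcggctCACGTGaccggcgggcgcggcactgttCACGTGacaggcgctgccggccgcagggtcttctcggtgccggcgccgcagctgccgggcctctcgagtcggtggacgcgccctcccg
Cd63: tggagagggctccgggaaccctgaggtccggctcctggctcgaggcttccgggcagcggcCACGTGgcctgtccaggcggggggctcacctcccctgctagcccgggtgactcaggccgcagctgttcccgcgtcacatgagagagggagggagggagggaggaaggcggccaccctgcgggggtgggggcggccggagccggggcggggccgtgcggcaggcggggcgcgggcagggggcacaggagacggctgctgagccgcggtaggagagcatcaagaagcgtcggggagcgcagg
In Ctsd the letters begin 157 and 10 bases before the gene start, in Lamp1 at 183, 167, 150, 65 and 38 bases before it, and in Cd63 at 190 bases before it. Such a match describes letters only, and says nothing of a factor bound there.

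The isolates carried type 2 cell transcripts. Of 11 listed type 2 cell markers, 5 were on the array, and Sftpc, the surfactant protein C gene, stood at 12.41 to 12.78 in the 3 ethanol arrays and at 12.76 to 12.84 in the 4 control arrays. Of 24 macrophage and monocyte markers, 12 were measured. Lyz2, a lysozyme gene of macrophages that rodent type 2 cells also express, was the brightest, at 11.21 to 11.88 in the ethanol arrays and 11.47 to 12.07 in the control arrays. Itgam, an integrin gene of myeloid cells, was the dimmest, at 2.62 to 2.69 in the ethanol arrays and 2.35 to 2.86 in the control arrays. The others lay between, with means over the 7 arrays of 7.09 (Aif1), 6.03 (Ctss), 5.97 (Cd14), 5.56 (Ptprc) and 5.11 (C1qb). The rest of them were at 4.65 (Fabp4), 4.33 (Csf1r), 4.06 (Mmp12), 3.34 (Fcgr2b) and 3.05 (Spp1). The values are log2 signals, deposited already on a common scale (array means of 4.759 to 4.761 in ethanol and 4.759 to 4.760 in controls). The SD of the values on an array was 1.337 to 1.459 in the ethanol group and 1.285 to 1.437 in the control group (exact two-sided permutation test of the means, p = 0.686).

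Ethanol feeding was not accompanied by a change past the threshold in any of the 9 genes. By limma with Benjamini-Hochberg adjustment over all 8740 probe sets, 0 of 19 had an adjusted p under 0.05, where 0.149% of all probe sets did. At an unadjusted p under 0.05 there were also 0 of 19 (4.58% of all probe sets), and in 0 of 19 did the 3 ethanol arrays lie wholly outside the range of the 4 control arrays (5.24% of all probe sets). Differences, always ethanol minus control on the log2 scale, were above 0 in 15 probe sets and below 0 in 4, from -0.044 to 0.79 with a median of 0.19, against a median of -0.0051 over all probe sets. Taking for each gene the probe set with the highest mean, 6 genes lay above 0 and 3 below, with a median of 0.098. The adjusted p of the 19 ran from 0.967 to 1.0. Standard errors of the differences were 0.105 to 0.583, with a median of 0.148 over all probe sets, so the precision differed widely among the members.

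**Figure D1:**
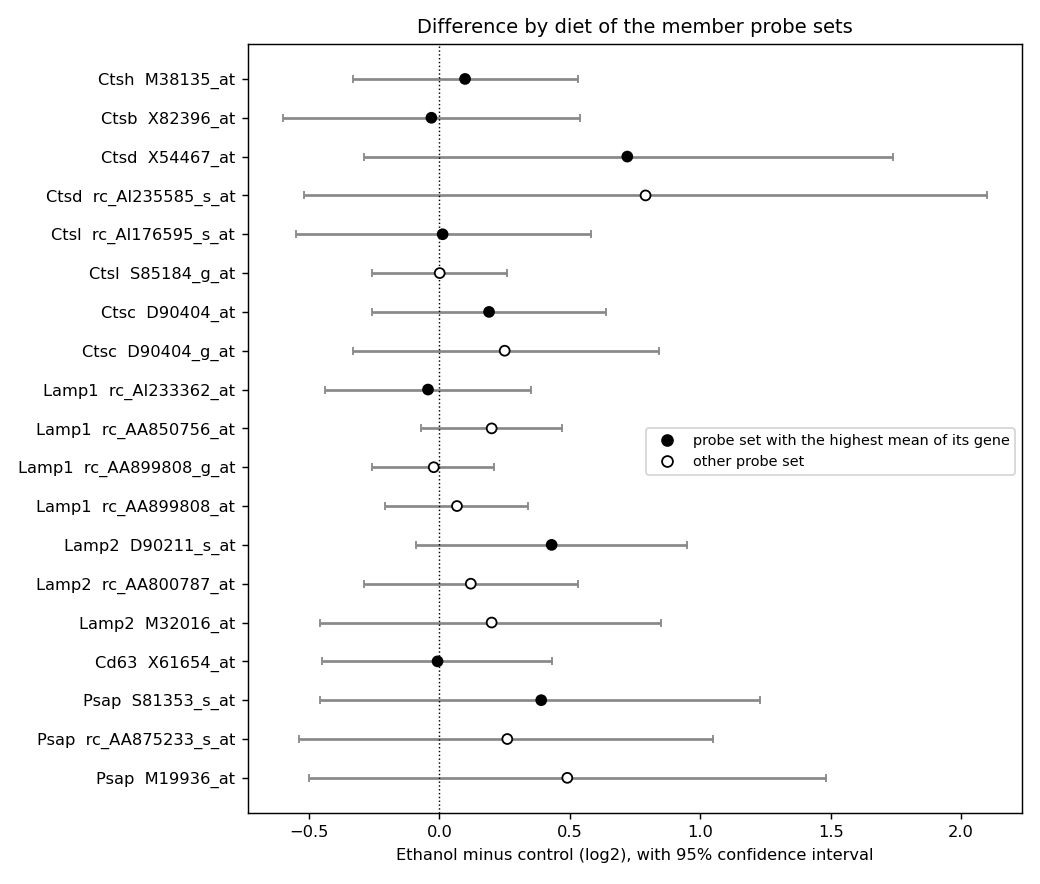
Difference by diet (ethanol minus control, log2, horizontal axis) of each of the 19 probe sets, with its 95% confidence interval from limma. Filled points mark the probe set with the highest mean of its gene and open points the others. All 19 intervals span 0, and those of Ctsd and Psap are the widest.

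The differences of the cysteine cathepsins lay between -0.031 and 0.25, and the intervals of all 6 probe sets spanned 0. Ctsh, whose aminopeptidase product acts on the surfactant protein B precursor, read 7.27, 7.90 and 8.02 in ethanol 2, 3 and 4, and 7.82, 7.49, 7.46 and 7.74 in control 1, 2, 3 and 4. Ethanol arrays lay both at the bottom and at the top of this set, so the groups overlapped. The difference was 0.098 (SE 0.190, probe set M38135_at, adjusted p = 0.971), and its 95% interval of -0.33 to 0.53 corresponds to between 0.796 and 1.44 times the control level.

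Ctsb, an abundant endopeptidase and carboxypeptidase of lysosomes, read 6.89, 6.89 and 7.29 in ethanol 2, 3 and 4, and 7.11, 6.71, 6.66 and 7.75 in control 1, 2, 3 and 4. The control arrays spanned the whole ethanol range, with control 4 the highest of all. Its difference was -0.031 (SE 0.252, X82396_at, adjusted p = 0.995; interval -0.60 to 0.54).

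Ctsc, the dipeptidyl peptidase that activates serine proteases of leukocyte granules, had a pair of probe sets. The brighter one, D90404_at, read 7.27, 6.94 and 7.33 in ethanol 2, 3 and 4, and 7.14, 6.49, 7.03 and 7.31 in control 1, 2, 3 and 4. Control 2 was the lowest array and the others of both groups mixed. The differences were 0.19 (SE 0.199) and, in D90404_g_at, 0.25 (SE 0.260), with adjusted p of 0.969 and 0.967. Without control 2 they were 0.0202 and 0.0416, and with array weights D90404_at was at 0.000346. Both probe sets ordered the 7 arrays alike (Pearson r = 0.91, Spearman rho = 0.93; 0.72 without ethanol 3 and control 2), as a description of values that share their arrays.

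Ctsl, an endopeptidase, was read by a probe set with spread and by a flat one. In rc_AI176595_s_at it lay at 4.99, 5.55 and 6.04 in ethanol 2, 3 and 4, and at 5.58, 5.07, 5.56 and 5.85 in control 1, 2, 3 and 4, a difference of 0.012 (SE 0.252, adjusted p = 0.999). Ethanol 2 was the lowest array and ethanol 4 the highest, so the ethanol group spanned the control group. In S85184_g_at all arrays lay between 4.33 and 4.57, with a difference of 0.00087 (SE 0.115). Over the 7 arrays the probe sets ran apart (Pearson r = -0.40, Spearman rho = -0.25), but without ethanol 2 and control 2 the r was 0.92, so their relation rests on those arrays.

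Ctsd had the largest differences of the members, and Ctsd and Psap had the widest spread. Ctsd encodes cathepsin D, the main aspartic protease of lysosomes. Its brighter probe set, X54467_at, read 9.61, 8.14 and 8.45 in ethanol 2, 3 and 4, and 7.29, 7.93, 7.67 and 9.15 in control 1, 2, 3 and 4. The ethanol arrays all lay above control 1, 2 and 3, and control 4 lay above both ethanol 3 and ethanol 4. The mean was 8.73 ± 0.777 in ethanol (SD, n = 3) and 8.01 ± 0.803 in control (SD, n = 4), a difference of 0.72 (SE 0.452, adjusted p = 0.967) with a 95% interval of -0.29 to 1.74, that is 0.817 to 3.34 times the control level.

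The other Ctsd probe set, rc_AI235585_s_at, read 8.54, 6.84 and 7.46 in ethanol 2, 3 and 4, and 6.82, 5.86, 6.19 and 8.41 in control 1, 2, 3 and 4. Ethanol 2 and control 4 were again the highest, and control 2 was the lowest. Its difference was 0.79 (SE 0.583, adjusted p = 0.967), and the highest array was 6.41 times the lowest, the widest span among the 19 probe sets. The Ctsd probe sets correlated at a Pearson r of 0.86 (Spearman rho 0.86), and at 0.42 without ethanol 2 and control 4.

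Psap encodes prosaposin, which is cut into the saposins that help lysosomal enzymes degrade sphingolipids. Its brightest probe set, S81353_s_at, read 9.04, 8.08 and 8.04 in ethanol 2, 3 and 4, and 8.13, 7.38, 7.55 and 8.94 in control 1, 2, 3 and 4. Control 1 lay above 2 of the 3 ethanol arrays, so the groups overlapped in more than a single array. The differences were 0.39 (SE 0.377) here, 0.26 (SE 0.354) in rc_AA875233_s_at and 0.49 (SE 0.441) in M19936_at, with adjusted p of 0.967 to 0.971. Single arrays moved them: S81353_s_at was at 0.0587 and rc_AA875233_s_at at 0.0414 without ethanol 2, whereas without control 4 S81353_s_at was at 0.7 and M19936_at at 0.905, and M19936_at was at 0.195 without control 2. In M19936_at the values were 7.40, 6.77 and 7.34 in ethanol 2, 3 and 4, and 6.92, 5.79, 6.09 and 7.92 in control 1, 2, 3 and 4. The 3 probe sets ordered the arrays alike, with Pearson r of 0.90 to 0.94 between them. Without the 2 arrays farthest from the median of the brighter probe set of each pair, r was 0.81 to 0.92.

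**Figure D2:**
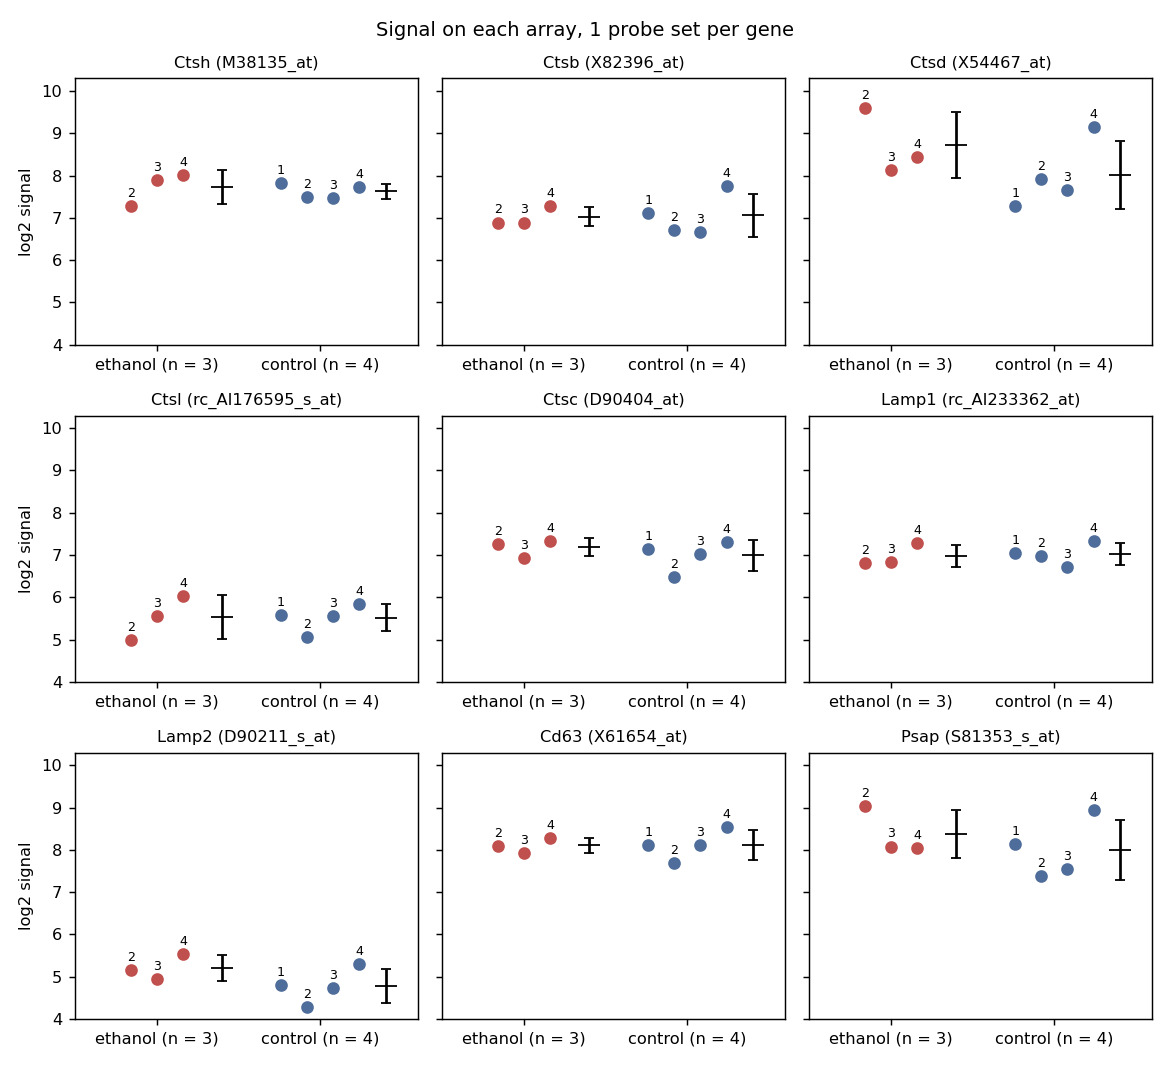
Log2 signal (vertical axis) on each array for the probe set with the highest mean of each gene. Points are arrays with their replicate number, ethanol left and control right, and the black mark and bar give the mean and SD of the group. Ethanol 2 and control 4 are the highest arrays in Ctsd and Psap, at 9.61 and 9.15 in Ctsd and at 9.04 and 8.94 in Psap.

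Within the groups, Ctsd and Psap varied more than nearly every other transcript on the array. The within-group SD (both groups pooled after removing their means) was 0.793 and 1.03 in the Ctsd probe sets and 0.609 to 0.772 in those of Psap, against a median of 0.193 over all probe sets. They stood at the 99.4 and 99.8 percentiles for Ctsd and at the 98.1 to 99.3 percentiles for Psap. Of all 19 probe sets, 9 were above the 90 percentile. The lowest SDs belonged to probe sets of Lamp1 and Ctsl, at 0.0469 in rc_AA899808_g_at and 0.0946 in S85184_g_at.

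**Figure D3:**
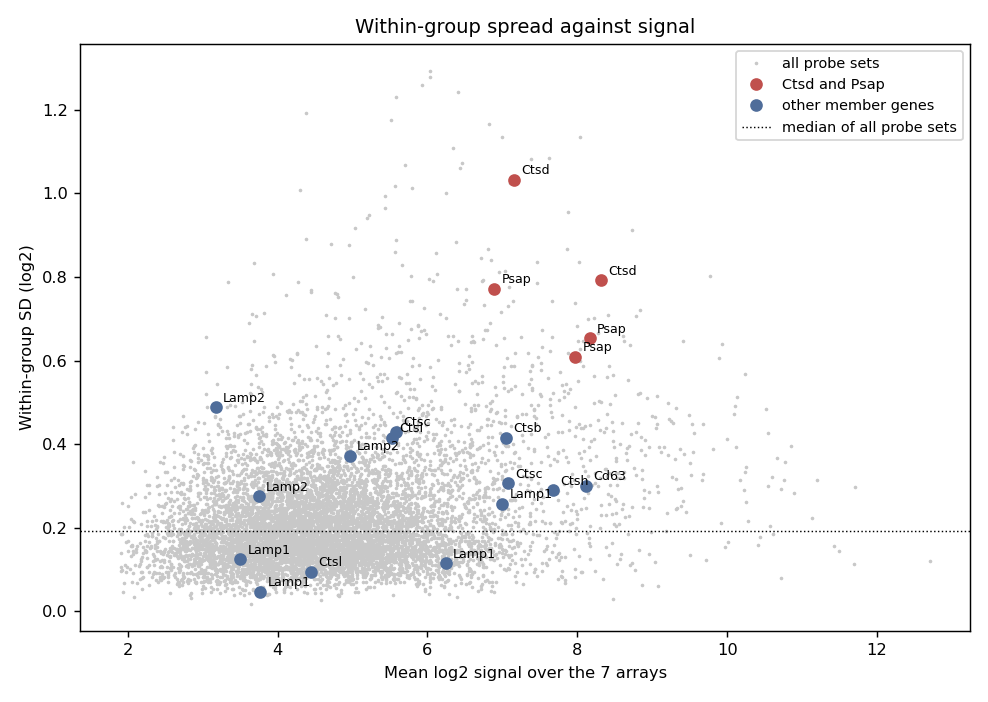
Within-group SD (log2, vertical axis) against the mean log2 signal over the 7 arrays (horizontal axis) for all 8740 probe sets in grey and for the members in colour. The 5 probe sets of Ctsd and Psap lie at SDs of 0.609 to 1.03, above the dotted line of the median, 0.193.

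In all 5 probe sets of Ctsd and Psap the 2 highest arrays were ethanol 2 and control 4, an order found in 0 of the 14 probe sets of the other members and in 4.51% of all probe sets. This order was noticed in these values and carries no test. Across the 7 arrays, rc_AI235585_s_at of Ctsd correlated with the Psap probe sets at a Pearson r of 0.92 to 0.97 (Spearman rho 0.82 to 0.93), and without ethanol 2 and control 4 at 0.84 to 0.99. For X54467_at these values were 0.65 to 0.81 (rho 0.57 to 0.71), and 0.02 to 0.31 without ethanol 2 and control 4. The relation of Ctsd to Psap beyond those arrays was therefore seen with only 1 of the Ctsd probe sets.

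How far summed macrophage markers moved with these genes depended on whether Lyz2, which rodent type 2 cells also express, was included. The summed level of the 11 macrophage and monocyte markers other than Lyz2, in unlogged signal units, was 543, 403 and 445 in ethanol 2, 3 and 4, and 378, 423, 401 and 516 in control 1, 2, 3 and 4. Ethanol 2 and control 4 were the highest arrays here too. The log2 of this sum correlated with Ctsd at a Pearson r of 0.98 (Spearman rho 0.96; 0.89 without ethanol 2 and control 4) in X54467_at, and at 0.85 (0.75; 0.23) in rc_AI235585_s_at. With Psap it correlated at 0.66 to 0.79 (0.46 to 0.64), and at -0.22 to 0.12 without those arrays. With Lyz2 the sum was 2908 in ethanol 2 and 4684 in control 1, against 543 and 378 without it, so this full sum mostly reads Lyz2. Its correlations over the 7 arrays were -0.37 (Spearman rho -0.39) for X54467_at of Ctsd and 0.01 (0.11) for S81353_s_at of Psap. Without ethanol 2 and control 1 they were 0.72 and 0.73. The brightest probe sets of the other members correlated with this full sum at 0.31 (Lamp2) to 0.81 (Ctsl), with Spearman rho of 0.25 to 0.86. Without ethanol 2 and control 1 those values were 0.32 (Ctsh) to 0.98 (Cd63). With the sum that leaves out Lyz2, probe sets of the other members ran from -0.40 (Ctsh) to 0.69 (Lamp1 rc_AA850756_at, Spearman rho 0.82).

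Single macrophage markers did not all follow. Cd14, the endotoxin co-receptor gene, Ctss, the cathepsin S gene of antigen-presenting cells, and the fatty acid binding protein gene Fabp4 had ethanol 2 and control 4 as their highest arrays. Ctss read 6.77, 5.96 and 6.44 in ethanol 2, 3 and 4, and 5.73, 5.57, 5.06 and 6.68 in control 1, 2, 3 and 4. These are 25.0% of the 12 markers, each read by its brightest probe set, against 4.51% of all probe sets. The other 9 of the 12 markers did not have this order. Among them, ethanol 2 was the highest ethanol array in Aif1, Ptprc, Mmp12, Fcgr2b and Spp1. Control 4 was the highest control array in Itgam and Spp1. In Lyz2, Csf1r and C1qb neither array was the highest of its group. Leaving out Cd14, Ctss and Fabp4 as well as Lyz2 was a choice made after their values were seen. Dropping those 3 lowers ethanol 2 and control 4 against the other arrays by construction. The sum of the other 8 was 323, 266 and 265 in ethanol 2, 3 and 4, and 247, 305, 295 and 274 in control 1, 2, 3 and 4. Ethanol 2 was still the highest array, whereas control 4 lay below control 2 and 3, and this sum carries no test. In C1qb, a complement gene of macrophages, the highest arrays were ethanol 3 at 5.35 and control 2 at 5.51. The sum of all 12, most of it Lyz2, was lowest in ethanol 2, at 2908 against 3257 to 4684 in the control arrays. The part of macrophages in the spread of Ctsd and Psap was not tested.

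Between the diet groups the summed macrophage level without Lyz2 ranged from 403 to 543 in ethanol and from 378 to 516 in control (exact two-sided permutation p = 0.4, Benjamini-Hochberg adjusted p = 0.809 over 9 marker sums; the smallest p for 3 arrays against 4 is 0.0571). Of these 11 markers, 9 had differences above 0 and 2 below, and 0 had an adjusted p under 0.05. The summed level of the 5 type 2 cell markers was 10067 in ethanol 2, the lowest of all arrays, and 13010 in control 4, within the control range of 12155 to 13061. Of the actin probe sets, the 3' minus 5' difference, a measure of RNA integrity, was 0.645 in ethanol 2 and 0.677 in control 4, inside the range of the other arrays (0.6075 to 1.105). The same measure for GAPDH was 0.304 in ethanol 2 and 0.169 in control 4, the lowest of all arrays, where the others lay at 0.237 to 0.419. The part of RNA integrity was not tested.

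The lysosomal membrane genes differed in how far their probe sets could be read. Lamp1, which encodes an abundant glycoprotein of the lysosomal membrane, had 4 probe sets. In the brightest, rc_AI233362_at, it read 6.81, 6.84 and 7.28 in ethanol 2, 3 and 4, and 7.05, 6.97, 6.72 and 7.33 in control 1, 2, 3 and 4, a difference of -0.044 (SE 0.175, adjusted p = 0.982). The groups overlapped almost fully. In rc_AA850756_at the values were 6.38, 6.22 and 6.48 in ethanol 2, 3 and 4, and 6.10, 6.17, 6.08 and 6.31 in control 1, 2, 3 and 4, a difference of 0.20 (SE 0.120, adjusted p = 0.967). Here only control 4 reached into the ethanol range. The dim rc_AA899808_at and rc_AA899808_g_at, with control means of 3.47 and 3.78, had differences of 0.067 and -0.022. The values of rc_AA899808_g_at were nearly flat, between 3.71 and 3.84 on all arrays. Their small deviations ran opposite to rc_AI233362_at (Pearson r = -0.80, Spearman rho = -0.86 over the 7 arrays, and r = -0.85 without ethanol 4 and control 4). The sign of the difference thus varied between the Lamp1 probe sets.

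Lamp2, whose product protects the membrane and is needed in autophagy, had the lowest unadjusted p of the 9 genes. In D90211_s_at it read 5.15, 4.94 and 5.54 in ethanol 2, 3 and 4, and 4.80, 4.29, 4.74 and 5.30 in control 1, 2, 3 and 4. Apart from control 4, the ethanol arrays lay above the control arrays. The difference was 0.43 (SE 0.231, adjusted p = 0.967), with an interval of -0.09 to 0.95. It was 0.266 without ethanol 4 or without control 2. The other Lamp2 probe sets were dim, with control means of 3.70 and 3.09, and had differences of 0.12 and 0.20.

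Cd63, a tetraspanin of late endosomes and of lysosome-related organelles, varied over the arrays by 1.83 times from the lowest to the highest. It read 8.10, 7.93 and 8.29 in ethanol 2, 3 and 4, and 8.12, 7.68, 8.11 and 8.55 in control 1, 2, 3 and 4. The ethanol arrays lay inside the control range. The difference was -0.0074 (SE 0.195, X61654_at, adjusted p = 0.999), with an interval of 0.734 to 1.35 times the control level.

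The plot of deviations from the group means shows that single arrays stood out across the members. Control 4 was the highest control array in 15 of the 19 probe sets, against 24.5% of all probe sets, and control 2 the lowest in 10 of 19, against 30.9% of all. Ethanol 4 was the highest ethanol array in 10 of 19, against 30.1% of all probe sets. The members share these arrays, so the counts are not independent of each other. The same arrays stood apart in the SD of all values on an array, which was highest in ethanol 4 (1.459) and control 4 (1.437) and lowest in control 2 (1.285). Over the 7 arrays the brightest probe sets of Ctsh, Ctsb, Ctsl, Ctsc, Lamp1, Lamp2 and Cd63 correlated with that SD at a Pearson r of 0.68 to 0.93 (Spearman rho 0.71 to 0.93), and at 0.18 to 0.90 without ethanol 4 and control 2. For Ctsd and Psap the values were 0.09 and 0.36 (rho 0.11 and 0.25). The part of this SD in the differences was not tested. Ethanol 4 also had the highest 3' minus 5' difference of the 7 arrays, at 1.105 for actin and 0.419 for GAPDH. The brightest probe sets of the members correlated with the actin measure at -0.34 (Ctsd) to 0.72 (Ctsh). Without ethanol 4 and control 1 these values were -0.65 (Ctsc) to 0.50 (Ctsh), and the part of RNA integrity was not tested here either. Without control 4, 5 of 19 probe sets had an unadjusted p under 0.05 (both of Ctsd, S81353_s_at and M19936_at of Psap, and D90211_s_at of Lamp2), where 9.03% of all probe sets did, and 0 had an adjusted p under 0.05. Leaving out the highest control raises these differences by construction, and with each of the other 6 arrays left out the count was 0 of 19. The Ctsd differences were then 1.10 and 1.32, and without ethanol 2 they were 0.285 and 0.331.

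**Figure D4:**
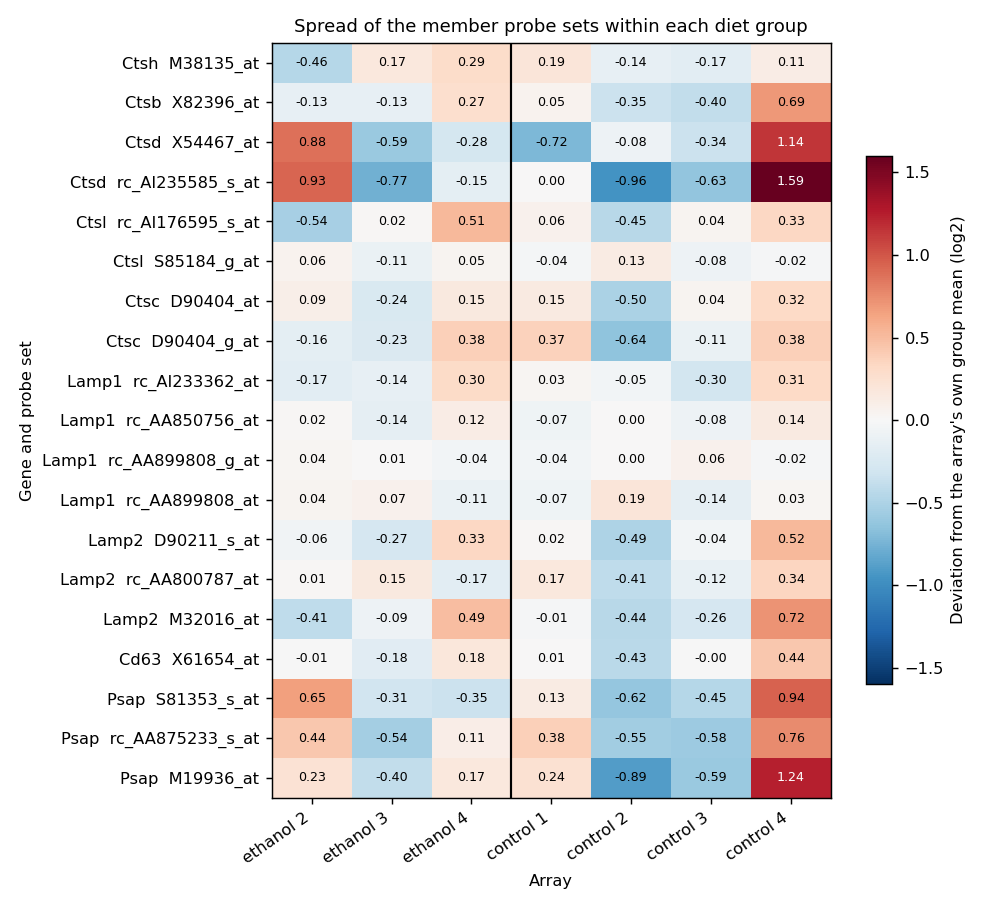
Deviation of each array (columns, ethanol left and control right of the line) from the mean of its own group, in log2 units, for the 19 probe sets (rows). Control 4 is the highest control array in 15 of the 19. The strongest colour is that of Ctsd rc_AI235585_s_at in control 4, at 8.41 against a control mean of 6.82. Control 2 lies far below the same mean, at 5.86.

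Other genes of the lysosomal and lamellar body system were read from 8 lists, of which 62 genes were on the array. Each was read by its probe set with the highest mean, and other probe sets of a gene could differ. With the probe sets of a gene averaged, Lipa was at 0.174 (0.497 in the brightest), Vps33a at 0.0675 (0.23) and Cstb at 0.399 (0.675). Nkx2-1 was then at -0.249 (-0.412), whereas Cst8 was slightly further from 0, at 0.273 (0.255). In these lists 0 genes had an adjusted p under 0.05 in either direction, and 2 of 62 (Gnptg and Tspan3) had an unadjusted p under 0.05, where 4.58% of all probe sets did. List medians ran from -0.12 to 0.077, against a median of -0.0051 over all probe sets.

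Among 4 measured further cathepsins, 2 lay above 0 and 2 below. Ctss had a difference of 0.63 (SE 0.340, adjusted p = 0.967), with control 4 inside the ethanol range. Ctse, an aspartic protease, and Ctsj were at -0.091 and -0.060. Of 5 measured cathepsin inhibitor genes, 4 lay above 0 (median 0.058), with the stefin gene Cstb at 0.67 (SE 0.610), the cystatin gene Cst8 at 0.25 (SE 0.128) and Serpinb3a at -0.19. Cstb read 7.86, 7.51 and 7.92 in ethanol 2, 3 and 4, and 7.67, 7.24, 5.12 and 8.32 in control 1, 2, 3 and 4. The difference was 0.0187 without control 3 and 1.09 without control 4.

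Of 10 measured glycan, lipid and other hydrolases, 7 lay above 0 (median 0.066). The acid lipase gene Lipa was at 0.50 (SE 0.454), the tartrate-resistant acid phosphatase gene Acp5 at 0.25 (SE 0.259) and the acid ceramidase gene Asah1 at 0.14 (SE 0.155). Of 5 further membrane and lipid-binding protein genes, 4 lay below 0 (median -0.072), with the chloride transporter gene Clcn7 at -0.18, the GM2 activator gene Gm2a at -0.28 and Laptm4a at -0.072. The 8 measured subunits of the vacuolar proton pump, which acidifies lysosomes and lamellar bodies, were split, with 4 above 0 and 4 below. Atp6v1b2, which encodes a subunit of the catalytic sector, was at -0.71 (SE 0.350, adjusted p = 0.967), Atp6v1d at 0.27 and Atp6v0a1 at -0.088. Atp6v1b2 read 5.45, 5.78 and 5.98 in ethanol 2, 3 and 4, and 6.55, 5.46, 6.53 and 7.26 in control 1, 2, 3 and 4, so that control 2 alone lay among the ethanol arrays.

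In the sorting and biogenesis list, 9 of 16 genes lay above 0. Gnptg, a subunit gene of the enzyme that starts the mannose 6-phosphate tag of lysosomal enzymes, read 5.35, 5.32 and 5.44 in ethanol 2, 3 and 4, and 5.82, 5.68, 5.65 and 5.65 in control 1, 2, 3 and 4. The groups did not overlap, but the difference of -0.33 (SE 0.110) had an adjusted p of 0.967. Igf2r, the receptor that carries tagged enzymes to lysosomes, read 6.07 to 6.10 in the ethanol arrays and 5.79 to 6.04 in the control arrays, again without overlap (as in 5.24% of all probe sets), a difference of 0.20 (SE 0.112, adjusted p = 0.967), and Vps33a was at 0.23. Of 8 tetraspanin genes other than Cd63, 3 lay above 0. Tspan3 was at 0.46 (SE 0.189, adjusted p = 0.967), Cd82 at 0.40 and Cd151 at 0.16. In the surfactant and lamellar body list, 2 of 6 genes lay above 0, with Nkx2-1, Sftpc and Sftpa1 at -0.41, -0.22 and 0.23. Under quantile normalization these 3 were at -0.437, 0.0 and 0.0838, so the Sftpc and Sftpa1 differences depended on the scaling of the arrays.

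**Figure D5:**
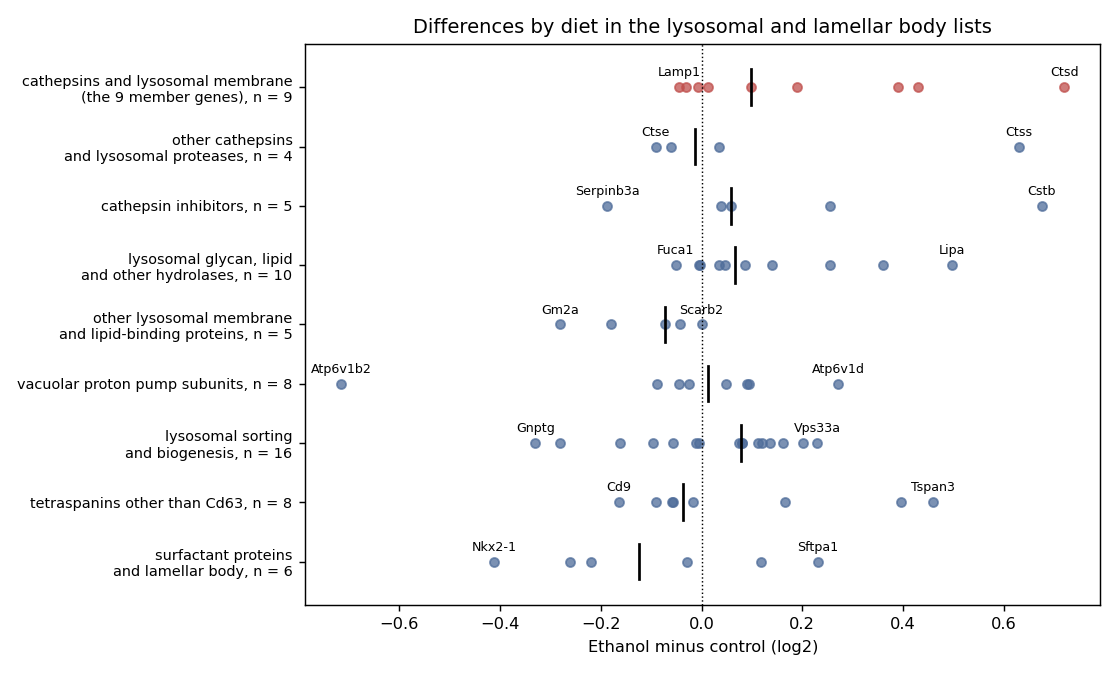
Differences by diet (ethanol minus control, log2, horizontal axis) of single genes, 1 point per gene, for the 9 member genes at the top and the 8 other lists below, with the number of measured genes. Black lines mark medians, which lie between -0.12 and 0.098, and the gene names mark the ends of each list.

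The genes whose values ran most like those of each member after removal of the group means, over 7 arrays, were of varied kinds. For Ctsh they were Pvr (Pearson r = 0.996) and Cnpy2 (0.994), for Ctsb Cxcl2 (0.983) and Arpc1b (0.981), and for Ctsd Pam (0.996) and Prss3bl1 (0.988). For Ctsl they were Oat (0.996) and Klf4 (0.995), for Ctsc Synj1 (0.985) and Efemp1 (0.977), and for Psap Ntf3 (0.990) and Marcks (0.966). For the membrane genes they were Becn1 (0.993) and Serpina10 (0.981) with Lamp1, Ythdf3 (0.993) and Ucp2 (0.993) with Lamp2, and Hspe1 (0.995) and Ehd4 (0.990) with Cd63. These are the highest values among all named genes over only 7 arrays, and they carry no test.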

How the data were processed

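The 9 genes and all gene lists were chosen with earlier results of these data known. The deposited table holds 1 value for each probe set on each array, and these deposited values were read as log2 from their range (1.65 to 12.84). Probe summary, background correction and normalization are not given in the sources used here. From the 8799 probe sets, 59 array controls were left out. The platform annotation gave 1 symbol to 7006 of the others, several to 308 and none to 1426, and only probe sets with 1 symbol were named. Of these, 6985 matched RefSeq genes of GRCr8 by Entrez identifier.

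Each probe set was fitted with limma 3.58.1 (R 4.3.3; lmFit and eBayes, diet as the term, two-sided, Benjamini-Hochberg over all 8740 probe sets, threshold 0.05). Values of a whole array were compared by exact permutation tests. The script was tested on simulated data with 200 changed probe sets. Named were all member probe sets and, from each list, the 3 genes of lowest p and any at unadjusted p under 0.05; genes named otherwise were picked after their values were seen. Marker sums used unlogged signal, and n counts animals. The number of arrays limits the precision. Alternatives were quantile normalization, array weights, a replicate block, a trended and robust variance prior, a filter that drops dim probe sets, averaging the probe sets of each gene, and each array left out. Correlations of same-numbered arrays after removal of group means were 0.425, 0.0666 and 0.432 for replicates 2, 3 and 4. Differently numbered arrays were not compared in this way, so these values do not settle whether the numbers mark pairs. The main fit treated the arrays as unpaired. Figures were drawn with matplotlib 3.10.9.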

Additional observations from a re-analysis of the deposited data

Results flagged for a closer look

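Among 56 measures tested in the 4 control arrays, 3 held an array whose gap to the nearest of the others was large for the range of the group, where chance gives about 1 in 20 measures. None of the 3 was one of the 9 genes. Ctse (D45187_s_at) read 4.27 in control 2, with 3.87 to 3.90 in the remaining 3 control arrays. Laptm4a (rc_AI639083_at), a dim probe set, read 2.87 in control 2, against 2.30 to 2.39 in the others. Vps33a (U35244_at) read 5.86 in control 1, against 6.23 to 6.30 in the others. The 3 ethanol arrays are too few for this comparison.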

How the results depend on the processing

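Under quantile normalization, array weights, the replicate block, the filter on dim probe sets, the trended and robust prior, gene means and each array left out, 0 member probe sets had an adjusted p under 0.05 (lowest 0.416, without control 4). Of 232 recomputed member values, 25 changed sign, and 10 of the 19 probe sets had no such change. The count of calls was 13 of 8740 probe sets, against 23 with the replicate block, in which control 1 has no partner, and against 1 of 4736 when genes were tested by their means. Same-numbered arrays deviated together in replicates 2 and 4 and hardly in replicate 3, and the block was kept as an alternative only. Whether the replicate numbers mark pairs cannot be told from so few arrays. Under the block, 2 members (Ctsc D90404_g_at and Lamp2 D90211_s_at) had an unadjusted p under 0.05, with 8.12% of all probe sets. Sign changes were -0.0134 for Ctsh under quantile normalization, -0.0203 (array weights) and -0.0119 (replicate block) for Ctsl S85184_g_at, -0.023 for Ctsl rc_AI176595_s_at and 0.00516 for Ctsj under array weights, and 0.0498 for the mean of the Lamp1 probe sets. With an array left out, values that changed sign ran from -0.0464 to 0.329 for Ctsh, -0.164 to 0.199 for Ctsb, -0.153 to 0.138 for Cd63, -0.243 to 0.278 and -0.0302 to 0.0587 for Ctsl, -0.195 to 0.0605 (rc_AI233362_at) and -0.0413 to 0.00319 (rc_AA899808_g_at) for Lamp1, -0.053 to 0.432 (M32016_at) and -0.0168 to 0.234 (rc_AA800787_at) for Lamp2, -0.18 to 0.0049 for Ctse, -0.156 to 0.0349 for Ctsj and -0.195 to 0.0562 for Laptm4a. The cause was not tested. Dim probe sets limit what can be read for Lamp1 and Lamp2.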

Other observations

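Of the 62 genes in the other lysosomal and lamellar body lists, 10 had ethanol 2 and control 4 as their 2 highest arrays (16.1%, against 4.51% of all probe sets). The genes were read by the brightest probe set of each, whereas the share over all probe sets includes dim ones, so the units differ. This order was looked for after it had been seen in Ctsd and Psap, so the count is a description. The 10 were Acp2, Acp5, Cd53, Cd9, Ctsk, Ctss, Lipa, Ppt1, Stx7 and Vps33a. Lipa, which encodes the acid lipase that frees cholesterol and fatty acids in lysosomes, read 6.91, 5.73 and 6.27 in ethanol 2, 3 and 4, and 5.82, 4.90, 5.48 and 7.05 in control 1, 2, 3 and 4. Ppt1, the palmitoyl-protein thioesterase gene, read 5.71, 4.83 and 5.57 in ethanol 2, 3 and 4, and 4.75, 4.54, 4.47 and 6.27 in control 1, 2, 3 and 4. In both genes control 4 was the highest array. Acp5, the tartrate-resistant acid phosphatase gene, read 6.43, 5.59 and 6.13 in ethanol 2, 3 and 4, and 5.65, 5.44, 5.66 and 6.42 in control 1, 2, 3 and 4. Cd9, a tetraspanin gene, read 7.61, 6.76 and 7.6 in ethanol 2, 3 and 4, and 7.47, 6.98, 7.37 and 8.14 in control 1, 2, 3 and 4. Cd53, a tetraspanin gene of leukocytes, read 4.85, 4.21 and 4.68 in ethanol 2, 3 and 4, and 4.37, 4.51, 4.25 and 5.25 in control 1, 2, 3 and 4. None of the 10 had an adjusted p under 0.05 between the diets, and the cause of the shared order was not tested.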
